A study of Homo sapiens with 6 samples.

Results

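The genes of mitosis and of the G2/M transition were examined in K1 cells transfected with an siRNA against NEAT1_2. The 44 members were matched by gene symbol in the 6 library tables and in the group table, and all 44 were found, among 19684 genes with an Ensembl identifier and 20522 entries in all. K1 is an established human papillary thyroid carcinoma cell line. The mRNA of K1 cells was sequenced in 3 libraries transfected with a negative control siRNA (NC) and in 3 libraries transfected with si-NEAT1_2, an siRNA against the long transcript of the lncRNA NEAT1. Both groups were transfected, both came from this 1 cell line, and the labels give no time, dose or separate cultures, so the p-values measure only the spread between these samples, which may be technical. NEAT1 itself was not analysed here, so its depletion in these libraries is not given, and samples were grouped by label.

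Cells enter mitosis when CDK1, bound to cyclin A or cyclin B, is activated by the CDC25 phosphatases. Aurora and Polo-like kinases, kinesin motors and microtubule-binding proteins then build the spindle, kinetochores attach the chromosomes to it, and the spindle checkpoint holds the anaphase-promoting complex (APC/C) back until attachment is complete. Most of these genes are transcribed in late S phase and G2 by the MuvB complex with B-MYB and FOXM1, and they form the proliferation signature of tumour expression data.

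The libraries held between 22798631 and 27066025 counts, and the 44 members took 0.50%, 0.61% and 0.51% of them in the NC libraries (replicates 1 to 3, as in all lists of values per library) and 0.50%, 0.44% and 0.43% in the si-NEAT1_2 libraries. The thyroid transcription factor PAX8 (FPKM, the abundance per length and library size, of 113 to 169 over the 6 libraries) and the keratins KRT8, KRT18 and KRT7 were present, whereas NKX2-1, TSHR and SLC5A5 did not exceed an FPKM of 0.08. The epithelial markers KRT19 and CDH1 did not exceed 0.70 and EPCAM did not exceed 1.73. Of 11 markers of blood, vessel or stromal cells, 4 reached an FPKM of 1 in any library, LUM and CD68 the highest of them, and their summed FPKM was 37.5 to 40.4 in NC and 34.1 to 39.8 in si-NEAT1_2. LUM was at 22.6 to 25.0 in NC and 16.2 to 19.9 in si-NEAT1_2 and CD68 at 11.6 to 13.2 and 14.9 to 19.6, without overlap and in opposite directions, and their part in the results was not tested. PTPRC, PECAM1, VWF and CDH5 stayed at or below 0.12. These are bulk libraries, in which fewer cells in G2 or M and less of each transcript per cell cannot be told apart.

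The members were tested as part of the whole table, 13109 genes after low counts were removed. Values per library are TMM-scaled CPM, counts brought to a common library size, and fold changes are log2 differences, si-NEAT1_2 minus NC, from the quasi-likelihood test of edgeR, with p-values adjusted by Benjamini-Hochberg over all genes tested. None of the 44 members was called at a fold change of 2 or more with an adjusted p under 0.05, and neither was any other gene (0 of 13109, 0.0%). DESeq2 called 15 genes higher and 45 lower by the same rule, and no member. The lowest adjusted p of any member was 0.170. The members nevertheless lay to one side of 0: their median log2 fold change was -0.31, against 0.0090 over all genes tested, with 31 members below 0 and 13 above. At an unadjusted p under 0.05, 19 members were lower and 2 were higher, where 12.9% of all genes tested were lower and 11.2% were higher by the same rule. In 9 members the 3 si-NEAT1_2 values all lay below the 3 NC values (14.1% of all genes) and in 5 they all lay above (15.4%), so that, unlike the unadjusted counts, the number of lower members without overlap was nearer to the background. For such members the two-sided exact permutation test gives 0.10, the smallest p that 3 libraries against 3 allow. The study's methods describe the cells as pairs but not which libraries belong together, and with the replicate number as a block 12 members were lower (7.04% of all genes tested) and 1 was higher (4.69%) at an unadjusted p under 0.05.

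**Figure D1:**
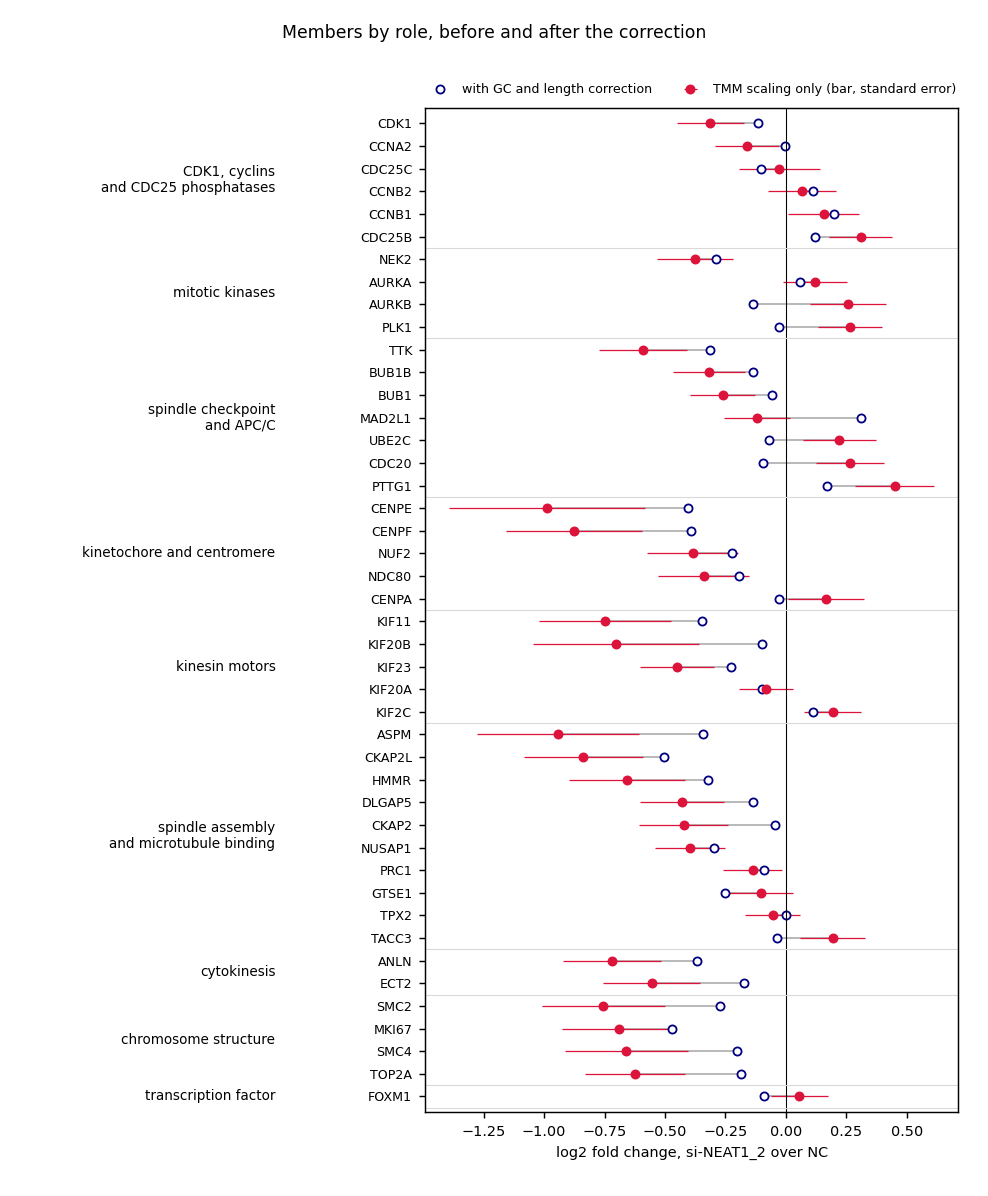
Log2 fold change (si-NEAT1_2 over NC, x axis) of the 44 members, grouped by role on the y axis. Filled red points and bars are the fits with TMM scaling and their standard errors, and open blue points are the fits with the correction for GC content and transcript length, in which 37 of the 44 members lie closer to 0.

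The order by role was uneven. The 4 genes of chromosome structure had the lowest median (-0.68), followed by the pair of cytokinesis genes (-0.64), 5 kinesins (-0.45), 10 genes of spindle assembly (-0.41), 5 genes of the kinetochore and centromere (-0.39) and 7 of the spindle checkpoint and APC/C (-0.12), whereas CDK1 with its cyclins and phosphatases (0.020), the 4 mitotic kinases (0.19) and FOXM1 (0.056) were at or above 0. Members with low GC content and long transcripts filled the lower end of this order. That pattern was shared by all genes of these libraries, so a second fit corrected each library for GC content and transcript length. Its log2 fold changes for single members are given beside the first.

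Among the genes that switch CDK1 on, 1 of 6 was lower and 1 of 6 was higher at an unadjusted p under 0.05. CDK1, the kinase that drives entry into mitosis, had 104, 110 and 89.7 CPM in NC and 85.7, 89.4 and 69.8 CPM in si-NEAT1_2. All si-NEAT1_2 values were below the NC values, the closest pair by a narrow margin, and the log2 fold change was -0.31 (SE 0.14, adjusted p = 0.203), or -0.12 with the correction. CCNA2, which encodes cyclin A2, had 118, 116 and 99.4 CPM in NC and 107, 104 and 87.2 CPM in si-NEAT1_2, which overlapped (log2 fold change -0.16, SE 0.13, and -0.0041 with the correction). CCNB1, the cyclin B1 partner of CDK1, had 289, 274 and 261 CPM in NC and 290, 371 and 257 CPM in si-NEAT1_2. Replicate 2 of si-NEAT1_2 stood above the other 5 libraries, and the log2 fold change was 0.16 (SE 0.15), or 0.20 with the correction. CDC25B, a phosphatase that removes the inhibitory phosphates of CDK1, had 88.0, 84.4 and 84.9 CPM in NC and 95.3, 122 and 101 CPM in si-NEAT1_2. It did not overlap between the groups, and its log2 fold change of 0.31 (SE 0.13, adjusted p = 0.188) was 0.12 with the correction. CCNB2 and CDC25C had log2 fold changes of 0.066 and -0.026, or 0.11 and -0.10 with the correction.

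Of the mitotic kinases, NEK2, which acts on centrosome separation, was the only 1 of 4 that was lower at an unadjusted p under 0.05 (log2 fold change -0.38, SE 0.16, adjusted p = 0.186), and it was -0.29 with the correction and without overlap in both. PLK1, the Polo-like kinase of mitotic entry and centrosome maturation, had 171, 166 and 164 CPM in NC and 183, 234 and 185 CPM in si-NEAT1_2. These values did not overlap, with a log2 fold change of 0.27 (SE 0.13, adjusted p = 0.231). AURKA, the Aurora kinase of the spindle poles, had 113, 112 and 103 CPM in NC and 119, 135 and 103 CPM in si-NEAT1_2. AURKB, the Aurora kinase of the chromosomal passenger complex, had 60.4, 57.1 and 60.6 CPM in NC and 60.3, 88.8 and 63.8 CPM in si-NEAT1_2. In all 3 of these kinases si-NEAT1_2 replicate 2 was the highest library. After the correction PLK1 was at -0.028, AURKA at 0.059 and AURKB at -0.13, so PLK1 and AURKB changed sign.

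In the spindle checkpoint, TTK, the MPS1 kinase that recruits the other checkpoint proteins to the kinetochore, had 39.6, 56.0 and 37.9 CPM in NC and 34.7, 26.4 and 27.5 CPM in si-NEAT1_2. Its groups did not overlap, and the log2 fold change was -0.59 (SE 0.18, adjusted p = 0.170), or -0.31 (SE 0.10) with the correction. BUB1B, the BUBR1 component of the complex that inhibits the APC/C, had 51.3, 60.7 and 52.0 CPM in NC and 52.0, 38.5 and 41.1 CPM in si-NEAT1_2 (log2 fold change -0.32, SE 0.15, and -0.14 with the correction). MAD2L1, the MAD2 component of the same complex, had 84.9, 90.6 and 78.1 CPM in NC and 79.8, 86.9 and 67.0 CPM in si-NEAT1_2. It was at -0.12 without the correction and at 0.31 with it, the widest change of sign of any member. BUB1, their kinase partner, was at -0.26, and at -0.059 with the correction.

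The APC/C side of this group was at or above 0 without the correction. CDC20, the activator through which the APC/C recognises cyclin B, had 379, 333 and 375 CPM in NC and 391, 512 and 401 CPM in si-NEAT1_2, without overlap (log2 fold change 0.26, SE 0.14, adjusted p = 0.260). With the correction its si-NEAT1_2 values all lay below the NC values instead, at -0.095. UBE2C, the ubiquitin-conjugating enzyme of the APC/C, had 142, 126 and 142 CPM in NC and 143, 196 and 140 CPM in si-NEAT1_2, and was at 0.22 without and -0.068 with the correction. PTTG1, or securin, an APC/C substrate that holds separase inactive, had the highest log2 fold change of the members (0.45, SE 0.16, adjusted p = 0.172) and was at 0.17 with the correction. The human genome carries near-identical intronless copies of PTTG1, so its counts may be less certain. The mapping of reads to such copies was not tested for any member.

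The kinetochore genes held the lowest log2 fold change of all members. CENPE, a kinesin that moves chromosomes to the metaphase plate, had 8.24, 23.9 and 17.6 CPM in NC and 13.2, 4.54 and 7.32 CPM in si-NEAT1_2, at -0.99 (SE 0.41, adjusted p = 0.185). NC replicate 1 lay among the si-NEAT1_2 values, the spread within each group was wide, and with the correction CENPE was at -0.41 (SE 0.25). CENPF, a large protein of the outer kinetochore that accumulates in G2, had 97.7, 208 and 135 CPM in NC and 108, 54.1 and 77.7 CPM in si-NEAT1_2. NC replicate 2 was far above NC replicate 1, which was itself below si-NEAT1_2 replicate 1. CENPF was at -0.88 (SE 0.28, adjusted p = 0.170), and at -0.39 (SE 0.15) with the correction, where it remained lower at an unadjusted p under 0.05. NDC80 and NUF2, which together bind the microtubule end, were at -0.34 and -0.39, or -0.19 and -0.22 with the correction. CENPA, the centromeric histone H3 variant, was at 0.17 without and -0.029 with the correction.

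Of the kinesins, KIF11, the motor that pushes the spindle poles apart, had 48.2, 94.6 and 65.2 CPM in NC and 58.5, 30.0 and 35.3 CPM in si-NEAT1_2. Its log2 fold change was -0.75 (SE 0.27, adjusted p = 0.172), or -0.35 with the correction. KIF20B, a kinesin of late cytokinesis, had 14.9, 43.2 and 24.5 CPM in NC and 21.5, 11.1 and 18.1 CPM in si-NEAT1_2. NC replicate 1 was the second lowest of these 6 values, and the log2 fold change of -0.70 (SE 0.34) was -0.10 with the correction. KIF23, the motor subunit of centralspindlin, was at -0.45 and did not overlap, and at -0.23 with the correction. KIF20A, which carries the passenger complex to the central spindle, was at -0.083, and at -0.10 with the correction. Its narrow values did not overlap in either fit. KIF2C, the microtubule depolymerase of the centromere, was at 0.19 and 0.11, above NC in both.

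Spindle assembly held 10 members, of which 6 were lower at an unadjusted p under 0.05 and 3 remained so with the correction (CKAP2L, HMMR and NUSAP1). CKAP2L, a microtubule-binding protein of the spindle, had 33.8, 59.8 and 39.0 CPM in NC and 32.4, 18.1 and 23.6 CPM in si-NEAT1_2. The groups did not overlap, and the log2 fold change of -0.84 (SE 0.25, adjusted p = 0.170) was -0.50 (SE 0.15) with the correction, the lowest corrected value of any member. ASPM, which focuses spindle poles, had 38.8, 95.7 and 53.1 CPM in NC and 46.1, 20.2 and 31.2 CPM in si-NEAT1_2. It was at -0.94 (SE 0.33, adjusted p = 0.171), and at -0.34 with the correction. TPX2, which activates AURKA on microtubules, had 298, 322 and 298 CPM in NC and 294, 300 and 290 CPM in si-NEAT1_2. It was one of the steadiest members, at -0.053 (SE 0.11) and 0.0016 with the correction. HMMR was at -0.66, DLGAP5 at -0.43, CKAP2 at -0.42, NUSAP1 at -0.40, PRC1, the bundler of the central spindle, at -0.14, GTSE1 at -0.10 and TACC3 at 0.19. With the correction HMMR was at -0.32, DLGAP5 at -0.14, CKAP2 at -0.046, NUSAP1 at -0.30, PRC1 at -0.089, GTSE1 at -0.25 and TACC3 at -0.037.

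Both cytokinesis genes were lower at an unadjusted p under 0.05. ANLN (anillin, ENSG00000011426, chromosome 7 of GRCh38 from 36389806 to 36453791, plus strand) is the scaffold of the contractile ring and had 253, 384 and 263 CPM in NC and 231, 146 and 170 CPM in si-NEAT1_2. It had the smallest p of the members without the correction, did not overlap in either fit, and was at -0.72 (SE 0.20, adjusted p = 0.170) and at -0.37 (SE 0.10, adjusted p = 0.175) with the correction. ECT2, the exchange factor that activates RhoA at the division plane, was at -0.55, and at -0.17 with the correction.

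All 4 genes of chromosome structure were lower at an unadjusted p under 0.05. MKI67 (ENSG00000148773, chromosome 10 of GRCh38 from 128096659 to 128126385, minus strand) encodes Ki-67, the surface coat of mitotic chromosomes and the routine marker of proliferating cells. It had 392, 532 and 403 CPM in NC and 356, 171 and 295 CPM in si-NEAT1_2, without overlap, at -0.69 (SE 0.23, adjusted p = 0.170) and at -0.47 (SE 0.13, adjusted p = 0.175) with the correction. TOP2A, the topoisomerase that untangles sister chromatids, had 160, 270 and 193 CPM in NC and 170, 111 and 124 CPM in si-NEAT1_2. SMC2, a core subunit of condensin, had 42.0, 76.8 and 47.7 CPM in NC and 43.9, 24.1 and 30.6 CPM in si-NEAT1_2. SMC4, its partner, had 141, 262 and 179 CPM in NC and 167, 88.0 and 113 CPM in si-NEAT1_2. In these 3 genes NC replicate 1 lay below si-NEAT1_2 replicate 1, and the log2 fold changes were -0.62, -0.75 and -0.66, or -0.19, -0.27 and -0.20 with the correction. FOXM1, the transcription factor of many of these genes, had 200, 177 and 192 CPM in NC and 189, 192 and 209 CPM in si-NEAT1_2, at 0.056 (SE 0.12) without and -0.090 with the correction.

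**Figure D2:**
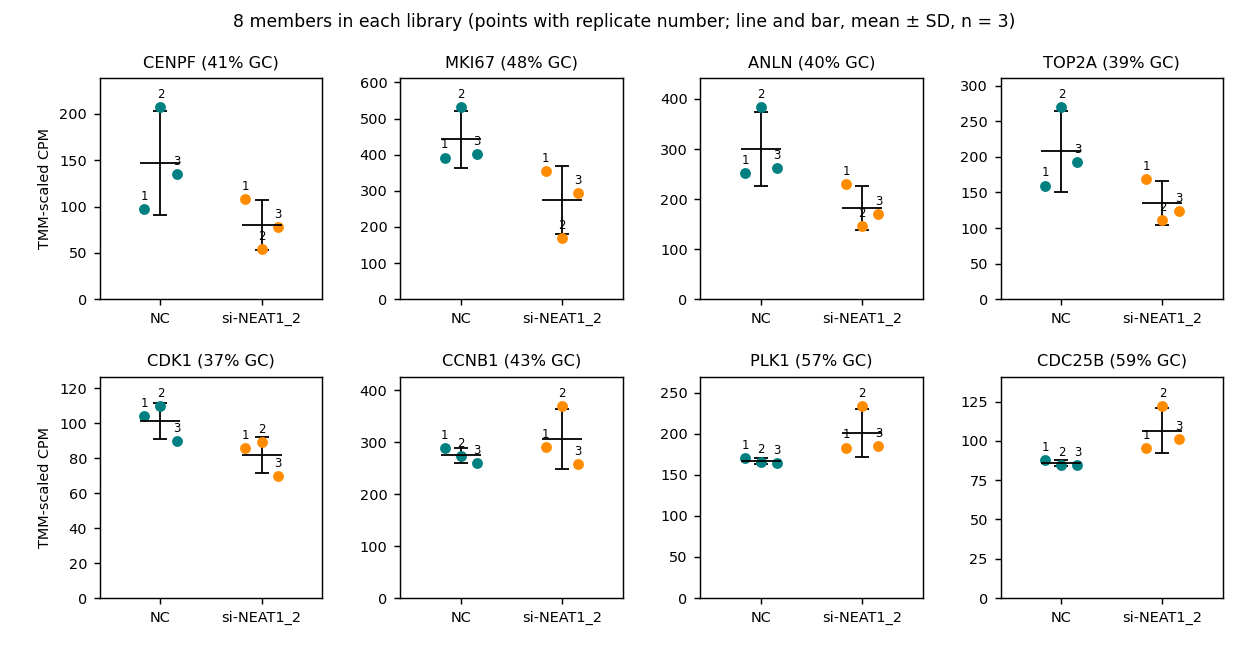
TMM-scaled CPM (y axis, from 0) of 8 members in the 3 NC and 3 si-NEAT1_2 libraries, with the replicate number at each point and the mean ± SD. NC replicate 2 is the highest library for CENPF, MKI67, ANLN, TOP2A and CDK1, and si-NEAT1_2 replicate 2 the highest for CCNB1, PLK1 and CDC25B.

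On a scale per length, the members spanned a wide range of levels. The mean FPKM in NC was highest for CDC20 (219), CCNB1 (189) and UBE2C (166) and lowest for CENPE (2.04) and KIF20B (4.70).

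The libraries did not move as 2 blocks. NC replicate 2 was the highest of the 6 libraries for 27 members, si-NEAT1_2 replicate 2 was the highest for 13, and si-NEAT1_2 replicates 3 and 2 were the lowest for 17 and 15. The median deviation of the members from their own mean over the 6 libraries, in log2 CPM, was 0.022, 0.28 and -0.0017 for NC and 0.011, -0.090 and -0.27 for si-NEAT1_2. NC replicates 1 and 3 and si-NEAT1_2 replicate 1 therefore held the members at nearly the same level, and the group difference rested on 1 high NC library and 2 si-NEAT1_2 libraries. With the correction the same medians were 0.028, 0.14 and 0.030 in NC and -3.32e-05, -0.020 and -0.15 in si-NEAT1_2.

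**Figure D3:**
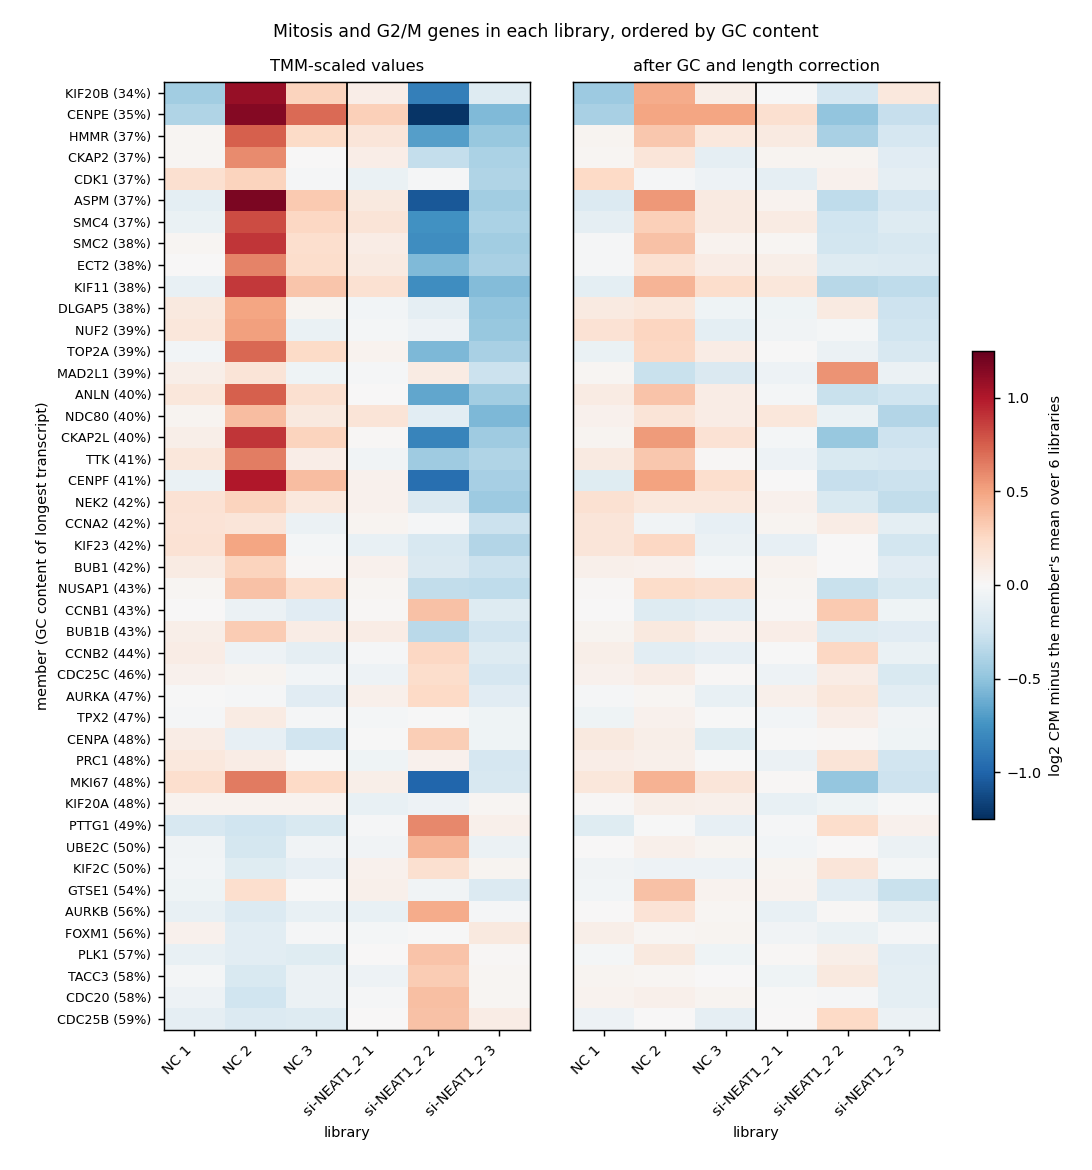
Log2 CPM of each member (rows, ordered by the GC content of the longest transcript) minus its mean over the 6 libraries (columns), with TMM scaling on the left and with the GC and length correction on the right. On the left the rows of low GC content are high in NC replicate 2 and low in si-NEAT1_2 replicate 2 while the rows of high GC content are the reverse, and on the right the colours are paler.

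Which members were low followed their base composition. Mitotic genes have a lower GC content than most genes, with a median of 42.4% in the longest transcript against 48.4% over all genes tested, and the range was 34.2% for KIF20B to 59.3% for CDC25B. To show this range, 120 bases from the middle of the coding sequence of the 2 members with the lowest GC content and the 2 with the highest are shown 5′ to 3′ with G and C in capitals, from GENCODE release 29:
KIF20B: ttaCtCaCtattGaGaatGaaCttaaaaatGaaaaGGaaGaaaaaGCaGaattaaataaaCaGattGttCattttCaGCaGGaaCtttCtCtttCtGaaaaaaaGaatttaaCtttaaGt
CENPE: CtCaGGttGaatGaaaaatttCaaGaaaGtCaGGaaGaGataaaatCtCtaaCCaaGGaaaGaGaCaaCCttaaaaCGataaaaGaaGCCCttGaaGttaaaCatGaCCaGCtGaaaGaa
CDC20: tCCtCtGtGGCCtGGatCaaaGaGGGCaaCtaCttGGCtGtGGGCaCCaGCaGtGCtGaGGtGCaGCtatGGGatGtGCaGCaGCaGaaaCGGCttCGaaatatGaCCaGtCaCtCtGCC
CDC25B: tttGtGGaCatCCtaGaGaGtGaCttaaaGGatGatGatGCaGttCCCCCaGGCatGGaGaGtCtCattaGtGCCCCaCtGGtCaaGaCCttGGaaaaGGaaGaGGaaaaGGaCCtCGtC
The capitals make up 25.8%, 35.0%, 55.8% and 49.2% of these windows and 34.7%, 35.3%, 57.5% and 60.3% of the whole coding sequences. KIF20B and CENPE had log2 fold changes of -0.70 and -0.99, CDC20 and CDC25B of 0.26 and 0.31.

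Across the 44 members, Spearman's rho of the log2 fold change was 0.81 with GC content and -0.76 with transcript length. The same trend ran through all 12581 genes with an annotated transcript (0.65 and -0.53). These are descriptions across genes, which share the 6 libraries and are not independent replicates. Of the 14 members under 40% GC, all had a log2 fold change below 0, with a median of -0.64 against -0.42 for all genes of that range, and 11 were lower at an unadjusted p under 0.05. The 13 members from 40 to 45% GC had a median of -0.38 against -0.21, the 8 from 45 to 50% a median of -0.040 against -0.019, and the 9 of 50% or more a median of 0.22 against 0.22. In each range all genes thus lay to the same side of 0 as the members, and under 50% GC the members lay further down. The ranges were not matched for transcript length. With the correction for both, the medians of the members in these ranges were -0.19, -0.23, -0.059 and -0.068. Those of all genes were -0.013, 0.0050, -0.0085 and -0.0057. MKI67 was an exception to the order by GC content, with 48.3% GC and a log2 fold change of -0.69, the lowest of the members above 45%. Its transcript of 12678 bases was the longest of the members, among which longer transcripts went with lower values. Once both features were corrected for, MKI67 was still at -0.47. The part of length in this exception was not tested.

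The trend belonged to single libraries as well as to the groups. Over all genes, rho between the deviation of a library and GC content was -0.26, -0.66 and -0.35 for NC and -0.15, 0.52 and 0.62 for si-NEAT1_2. The libraries with the steepest trends, NC replicate 2 and si-NEAT1_2 replicates 2 and 3, were those in which the members deviated most. All 3 NC libraries lay on one side and 2 of 3 si-NEAT1_2 libraries on the other, so the trend and the treatment cannot be told apart by the groups alone.

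**Figure D4:**
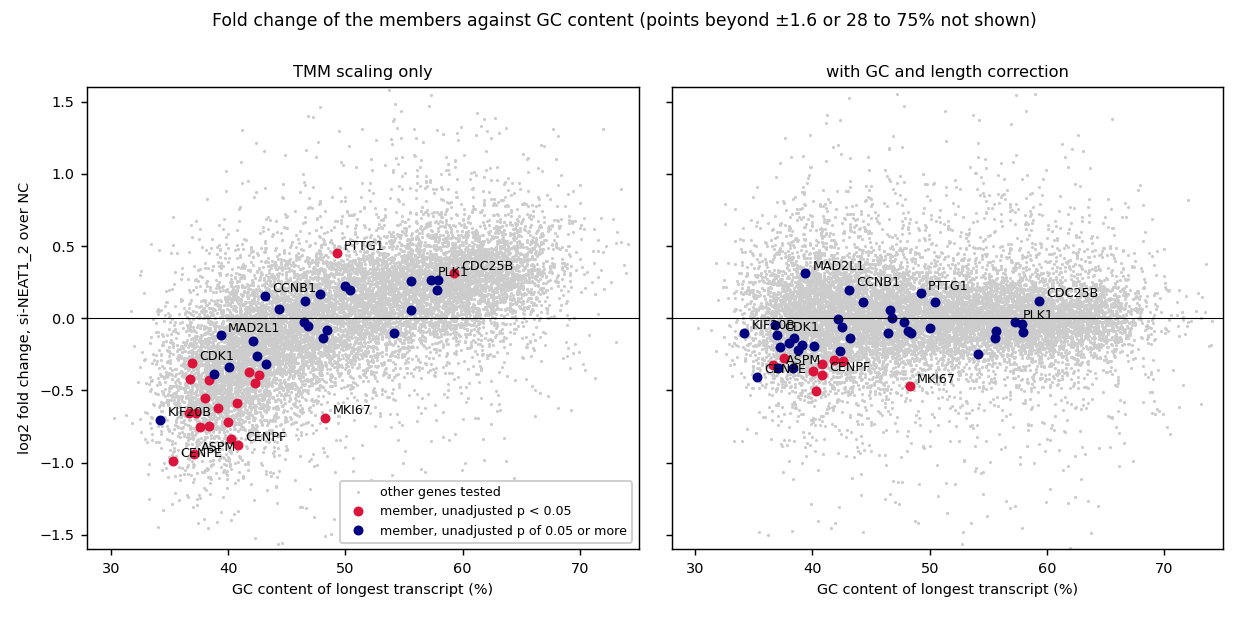
Log2 fold change (si-NEAT1_2 over NC, y axis) against the GC content of the longest transcript in percent (x axis), without (left) and with (right) the correction for GC content and length. Grey points are the other genes tested, red points members at an unadjusted p under 0.05 and blue points the other members, and the slope that the grey points show on the left is absent on the right, where 9 members are red, all below 0.

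With the correction, the median of the members was -0.12 (-0.0055 over all genes), 36 of 44 were below 0, and 37 were closer to 0 than before. At an unadjusted p under 0.05, 9 members were lower (7.96% of all genes tested) and 0 were higher (7.88%). The 9 were ANLN, CENPF, CKAP2L, HMMR, MKI67, NEK2, NUSAP1, SMC2 and TTK, all of them lower without the correction too. The 10 that were lower only without it were ASPM, CDK1, CENPE, CKAP2, DLGAP5, ECT2, KIF11, KIF23, SMC4 and TOP2A. Of the members, 0 were called by edgeR's quasi-likelihood test with the correction, and 4 of 13109 genes were (0.0305%). The groups did not overlap for 8 lower members (11.4%) and 1 higher member, KIF2C (10.1%). Spearman's rank correlation with GC content was still 0.47 among the members, against 0.0075 over all genes. The correction changed the sign of 9 members, AURKB, PLK1, MAD2L1, CDC20, UBE2C, CENPA, TPX2, TACC3 and FOXM1. Which transcript gave the GC content and length mattered, since with the median transcript of each gene 6 members were lower and 1 was higher, with a median over the members of -0.067. In that fit 2077 of 13109 genes tested had an unadjusted p under 0.05 in either direction, not counted by direction.

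Single libraries decided the counts. Without NC replicate 2, only TTK, CKAP2L and ANLN were lower at an unadjusted p under 0.05 (4.08% of all genes), and the members' median was -0.21. Without si-NEAT1_2 replicate 3 the lower members were TTK, CENPF, CKAP2L, ANLN and MKI67 (7.89%), with a median of -0.20. Without si-NEAT1_2 replicate 1, 23 members were lower at an unadjusted p under 0.05 (18.0%), and 10 at an adjusted p under 0.05 (3.01%), which were CENPF, KIF11, HMMR, CKAP2L, ANLN, ECT2, TOP2A, SMC2, SMC4 and MKI67, with adjusted p of 0.0493 to 0.0495. Of these, CENPF (-1.17), KIF11 (-1.10), CKAP2L (-1.09) and SMC2 (-1.03) also reached a fold change of 2 (1.39%). When the GC and length correction was added to this omission, 0 members had an adjusted p under 0.05 (lowest 0.0918) and 0 were called. With DESeq2 on all 6 libraries, CENPF, CKAP2L and ANLN had an adjusted p of 0.0395, 0.0350 and 0.0311 (273 lower genes of 10820 with an adjusted p, 2.52%), and 0 members reached a fold change of 2 as well. TTK, CKAP2L and ANLN were lower at an unadjusted p under 0.05 in each of the 4 fits here that had no correction.

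The sample descriptions carry a code from L2 to L4 whose meaning the labels do not give. Within L2, the difference between si-NEAT1_2 replicate 2 and the mean of NC replicates 2 and 3 had a member median of -0.30, with 28 of 44 members lower, and -0.096 with the correction. Within L3, the difference between si-NEAT1_2 replicate 3 and NC replicate 1 had a median of -0.32, with 35 members lower, and -0.17 with the correction, with 39 lower. Code L4 held si-NEAT1_2 replicate 1 alone. The members' median was below 0 within both codes, with and without the correction, from 1 si-NEAT1_2 library in each. Over all genes the medians were 0.0021 within L2 and -0.0022 within L3, or 0.019 and -0.024 with the correction. The share of all genes that were lower within each code was not counted. The libraries with the steepest GC trends, NC replicate 2 and si-NEAT1_2 replicates 2 and 3, all lie within these codes.

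Beyond the members, 115 other mitotic genes in 8 groups were examined, all of them tested. At an unadjusted p under 0.05, 32 were lower and 5 were higher, where 12.9% and 11.2% of all genes tested were, with a median log2 fold change of -0.12. With the correction 17 were lower (7.96% of all genes) and 6 were higher (7.88%), with a median of -0.076, and 0 were called by edgeR's quasi-likelihood test in either fit. Cohesin and its release factors, which hold sister chromatids together, had 7 of 12 lower and a median of -0.43, which was -0.097 with the correction and 2 lower. The other kinetochore, centromere and checkpoint genes had 9 of 27 lower, and the subunits and regulators of the APC/C had 1 of 17 lower and 2 higher. The 3 smallest p among the lower genes were those of ZW10, which recruits dynein to the kinetochore (log2 fold change -0.71, SE 0.14, adjusted p = 0.170, and -0.59 with the correction), CENPI, a subunit of the inner kinetochore (-0.70 and -0.48), and PDS5B, a regulator of cohesin (-0.74 and -0.19). Those among the higher genes were ANAPC15, an APC/C subunit (0.53 and 0.31), CENPM, another inner kinetochore subunit (0.57 and 0.084), and E2F4, a DNA-binding subunit of the DREAM complex (0.31 and -0.010). ZW10 kept most of its difference under the correction, at 37.5, 40.01 and 35.1 CPM in NC and 22.1, 24.9 and 21.8 CPM in si-NEAT1_2. A list of 36 genes of DNA replication and S phase had a median of 0.044, with 4 lower and 1 higher, neither share above that of all genes, and a median of -0.049 with the correction.

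The authors' group table, which gives 1 FPKM value per group and no replicates, showed another picture. All 44 members were lower for si-NEAT1_2 there (64.5% of all genes above 0 in both groups), and 22 were at least 2-fold lower (19.8%). The median log2 ratio was -0.998, against -0.26 over all genes, and the members ranged from -2.02 for KIF20A to -0.28 for UBE2C. MKI67 had 16.2 and 6.71 FPKM for NC and si-NEAT1_2, CCNB1 108 and 51.1, PLK1 88.6 and 56.9, and KIF20A 18.4 and 4.52. In the libraries the mean FPKM of KIF20A was 54.5 in NC and 49.4 in si-NEAT1_2, that of CCNB1 189 and 200, and that of PLK1 77.2 and 88.7, so the group values were not the means of these libraries. For 40 of the 44 members the NC value of the group table differed by over 10% from the mean of the 3 NC libraries, and for 34 members the si-NEAT1_2 value was below each of the 3 si-NEAT1_2 libraries. The ratios of the group table followed GC content little, with rho of 0.14 across the members and 0.093 over all genes. How the group values were made is not given in the sources used here, and with 1 value per group their error is unknown.

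**Figure D5:**
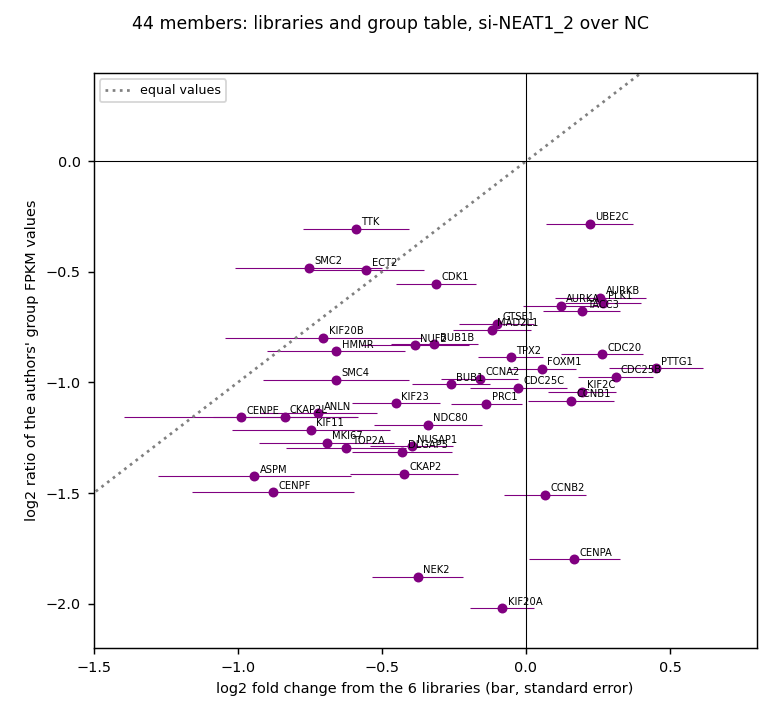
Log2 ratio of the authors' group FPKM values (y axis) against the log2 fold change from the 6 libraries with its standard error (x axis), both si-NEAT1_2 over NC, for the 44 members. All points lie below 0 on the y axis, from -2.02 to -0.28, while 13 lie above 0 on the x axis, and the dotted line marks equal values.

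The members also share sequence in their promoters, a feature that was not used to choose them. RefSeq promoters (GRCh38.p14, 250 bases before to 50 bases after the start, 300 in all) were given for 39 of the 44 members, all but AURKA, FOXM1, TPX2, TTK and UBE2C. The cell cycle genes homology region (CHR), the element through which the MuvB complex binds, was searched as TTTGAA on both strands, and the CCAAT box, the element of NF-Y, as CCAAT on both strands. TTTGAA was found for 27 of the 39 members (69.2%), against 13.6% of 9999 tested genes with a promoter and 15.2% of all 35116 promoters. CCAAT was found for 29 (74.4%), against 43.3% and 34.6%, and both for 21 (53.8%), against 7.39% and 5.90%. The rarer form TTCGAA was found for 3 members. Such a match is a property of these letters and not a measured site. The 120 bases before the start are shown for 3 members that were lower at an unadjusted p under 0.05 and for CDC20, which was not. All of these windows hold both motifs and have few bases in annotated UTRs or noncoding exons (0 for MKI67 and KIF11, 25 for ASPM and 26 for CDC20). By contrast, the windows of CENPF (0 such bases), NEK2 (9) and CKAP2 (16), which were also lower, hold no TTTGAA. The full promoter of 300 bases does hold it for CENPF, but not for NEK2, CKAP2 or CENPE, which was lower too. Both motifs are printed in capitals in either orientation (ATTGG and TTCAAA on the opposite strand):
MKI67: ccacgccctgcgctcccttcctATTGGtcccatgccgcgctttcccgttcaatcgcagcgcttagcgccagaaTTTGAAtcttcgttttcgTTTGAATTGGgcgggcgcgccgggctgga
KIF11: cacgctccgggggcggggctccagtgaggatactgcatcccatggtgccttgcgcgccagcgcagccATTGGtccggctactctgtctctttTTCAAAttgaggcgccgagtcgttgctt
ASPM: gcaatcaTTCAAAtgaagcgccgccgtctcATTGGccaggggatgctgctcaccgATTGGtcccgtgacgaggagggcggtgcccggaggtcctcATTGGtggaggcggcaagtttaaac
CDC20: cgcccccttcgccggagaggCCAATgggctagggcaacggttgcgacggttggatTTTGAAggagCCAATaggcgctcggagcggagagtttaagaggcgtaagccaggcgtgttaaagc
These lie at chr10:128126424-128126543 (minus strand), chr10:92593010-92593129 (plus), chr1:197146670-197146789 (minus) and chr1:43358861-43358980 (plus). MKI67 has 2 copies of TTTGAA there, the nearer of which shares its last base with a CCAAT box on the opposite strand. TTTGAA was found for 15 of the 18 members that were lower at an unadjusted p under 0.05 and for 12 of the other 21, CDC20, PLK1 and CCNB2 among them. No difference between these shares was tested.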

How the data were processed

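The mRNA of K1 cells was measured in 6 libraries, 3 NC and 3 si-NEAT1_2, grouped by their labels. Per the paper's methods, the authors mapped reads with TopHat2 and quantified genes with RSEM, while the submitters' processing notes name fastp 0.18.0, Bowtie2 2.2.8, HISAT2 and StringTie 1.3.1 with GRCh38. The annotation is not given in the sources used here. The deposited expected counts are the authors' estimated counts per gene and library, not normalized. The deposited FPKM values were scaled by the authors for length and library size. The authors' group table holds 1 expected count and 1 FPKM value per group, with totals of 17678761 for NC and 19579897 for si-NEAT1_2.

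Expected counts, between 9.19% and 9.61% of them not whole, were rounded, filtered with filterByExpr and scaled by TMM. Groups were compared in edgeR 4.0.16 (R 4.3.3) with its quasi-likelihood test, with Benjamini-Hochberg adjustment over all genes tested and no covariates. Standard errors are the log2 fold change divided by the square root of F. For the correction, splines with 5 degrees of freedom on GC content and log2 length of the longest coding transcript (GENCODE release 29) were fitted per library and used as offsets. The 838 unannotated loci, with 0.336% to 0.447% of the counts, received no offset. Alternatives were the scaling, the filter, DESeq2 1.42.0, limma-trend (limma 3.58.1) on FPKM with a pseudocount of 1 or 0.1, other transcripts, a replicate block, the library code and the omission of each library. The test was checked on simulated data. Counting was not stated to use strand, so reads of overlapping antisense genes cannot be told apart.

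The members and lists were chosen with earlier results of these data known. Each member was accounted for by role, and values per library were given for 21 members fixed by name and for those among the 5 smallest p or 5 largest changes. Of the other mitotic genes, the 3 smallest p in each direction were named.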

Additional observations from a re-analysis of the deposited data

How the results depend on the processing

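Of the results named here, DESeq2 size factors, a minimum of 10 counts per library, no filter, DESeq2 itself and annotated genes alone (the last chosen after seeing the data) left the counts of members and other mitotic genes at an unadjusted p under 0.05 or without overlap within 1.5 times, and the sign of every member and role median. Over all genes, however, where the TMM-scaled fit called 0, no filter called 9 higher and 9 lower and DESeq2 15 higher and 45 lower, and DESeq2 put 3 members at an adjusted p under 0.05 in place of 0. With the GC and length correction, 9 members were lower at an unadjusted p under 0.05, 0 were higher, 1 did not overlap in the higher direction, the median log2 fold change of the members was -0.12, the rank correlation of the members with GC content was 0.47 and the other mitotic genes gave 17 lower. The role medians became -0.081 for the kinases, -0.10 for the kinesins, -0.19 for the spindle assembly group, -0.27 for cytokinesis and -0.24 for chromosome structure. Opposite signs resulted for AURKB (-0.13), PLK1 (-0.028), MAD2L1 (0.31), CDC20 (-0.095), UBE2C (-0.068), CENPA (-0.029), TPX2 (0.0016), TACC3 (-0.037) and FOXM1 (-0.090). With a correction for GC content alone, 7 members were lower at an unadjusted p under 0.05, 1 was higher, the median log2 fold change of the members was -0.059, the rank correlation of the members with GC content was 0.42 and the other mitotic genes gave 12 lower. The role medians became 0.042 for the checkpoint group, -0.014 for the kinetochore group, -0.17 for the kinesins, -0.15 for the spindle assembly group and -0.28 for cytokinesis. The sign changed for CDK1 (0.12), CCNA2 (0.085), CDC25C (0.041), MAD2L1 (0.24), NUF2 (0.0017), TACC3 (-0.028), CKAP2 (0.016) and FOXM1 (-0.12). With the median transcript of each gene as the source of GC content and length, 6 members were lower at an unadjusted p under 0.05, 1 was higher, the median log2 fold change of the members was -0.067, the rank correlation of the members with GC content was 0.50 and the other mitotic genes gave 13 lower. The role medians became 0.035 for the checkpoint group, -0.069 for the kinesins and -0.14 for the spindle assembly group. Opposite signs resulted for CDK1 (0.044), CCNA2 (0.16), CDC25C (0.0079), BUB1B (0.0048), MAD2L1 (0.42), TPX2 (0.15) and TACC3 (-0.053). With the transcript nearest to the length implied by the deposited counts and FPKM values, an alternative chosen after seeing the data, 7 members were lower at an unadjusted p under 0.05, 1 was higher, the median log2 fold change of the members was -0.067, the rank correlation of the members with GC content was 0.41 and the other mitotic genes gave 13 lower. The role medians became -0.019 for the kinases, -0.12 for the kinetochore group, -0.039 for the kinesins, -0.17 for the spindle assembly group, -0.19 for cytokinesis and -0.24 for chromosome structure. The sign changed for CDK1 (0.0042), CCNA2 (0.072), AURKB (-0.078), MAD2L1 (0.40), CDC20 (-0.026), UBE2C (-0.055), TPX2 (0.084), TACC3 (-0.069) and FOXM1 (-0.030). Scaled by library totals without TMM, 1 member was higher at an unadjusted p under 0.05 and the other mitotic genes gave 2 higher. Opposite signs resulted for CCNB2 (-0.0017) and FOXM1 (-0.0060). With limma-trend on log2(FPKM + 1), 1 member was higher at an unadjusted p under 0.05, the rank correlation of the members with GC content was 0.77 and the other mitotic genes gave 2 higher. The sign changed for CCNB2 (-0.0033) and AURKA (-0.014). With limma-trend on log2(FPKM + 0.1), 1 member was higher at an unadjusted p under 0.05 and the other mitotic genes gave 2 higher. Opposite signs resulted for CCNB2 (-0.0034) and AURKA (-0.014). With a correction for length alone, 1 member was higher at an unadjusted p under 0.05. The role median became -0.039 for the kinases. The sign changed for CCNB1 (-0.0086), CCNB2 (-0.037), AURKA (-0.026), AURKB (-0.052), MAD2L1 (0.10), UBE2C (-0.10) and CENPA (-0.11). With the library code as a covariate, the other mitotic genes gave 9 higher. Opposite signs resulted for CDC25C (0.015). Of the 13109 genes tested, 1985 had an unadjusted p under 0.05 with the correction for GC content alone. With the median transcript 2077 did, and with the transcript nearest to the implied length 2076. These totals hold either direction and were not counted by direction.

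The main test was unpaired, since the methods give no covariate and do not say which libraries belong together. Same-numbered libraries correlated at -0.28, -0.36 and -0.0080 in their uncorrected deviations from the group means, and 0 of 6 libraries correlated best with the library of their own number. These deviations also hold the GC trend of each library, so they cannot show whether the libraries were paired. With a replicate block, 12 members were lower at an unadjusted p under 0.05, 1 was higher and the other mitotic genes gave 19 lower and 2 higher. With the replicate block and the correction together, 7 members were lower at an unadjusted p under 0.05, 0 were higher, the median log2 fold change of the members was -0.12, the rank correlation of the members with GC content was 0.44 and the other mitotic genes gave 8 lower and 3 higher. The role medians became -0.082 for the kinases, -0.10 for the kinesins, -0.19 for the spindle assembly group, -0.27 for cytokinesis and -0.23 for chromosome structure. The sign changed for AURKB (-0.13), PLK1 (-0.029), MAD2L1 (0.28), CDC20 (-0.10), UBE2C (-0.069), CENPA (-0.025), TPX2 (0.0011), TACC3 (-0.041) and FOXM1 (-0.090). Over all 13109 genes tested, 1280 had an unadjusted p under 0.05 in this fit, in either direction.

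Leaving out each library in turn, with and without the correction, gave 0 to 4 members called, 3 to 23 lower and 0 to 3 higher at an unadjusted p under 0.05, a member median of -0.42 to -0.10, a rank correlation with GC content of 0.35 to 0.84, and 6 to 40 lower and 1 to 11 higher among the other mitotic genes. The share of all genes moved too. It was 4.08% lower without NC replicate 2, the fit with 3 lower members. Without si-NEAT1_2 replicate 1, the fit with 23 lower and 4 called, it was 18.0% lower and 1.39% called lower. For the higher direction and the corrected omissions no such share was counted. Without the correction, 9 to 23 members did not overlap in the lower direction and 5 to 8 in the higher. Groups separate more easily when a library is left out, and the share of all genes was not counted for these omissions. The role medians ran from -0.12 to 0.27 for the kinases, from -0.58 to -0.094 for the kinesins, from -0.53 to -0.11 for the spindle assembly group, from -0.86 to -0.20 for cytokinesis and from -0.95 to -0.12 for chromosome structure. They ran from -0.12 (without si-NEAT1_2 replicate 2) to 0.12 (without si-NEAT1_2 replicate 3) for CDK1 with its cyclins and phosphatases, from -0.21 to -0.019 for the checkpoint group and from -0.53 to -0.15 for the kinetochore group. The sign of a log2 fold change depended on the library left out or on the correction for CCNA2 (-0.25 to 0.073), CCNB1 (-0.014 to 0.27), CCNB2 (-0.066 to 0.18), CDC25C (-0.18 to 0.066), AURKA (-0.0021 to 0.22), AURKB (-0.18 to 0.36), PLK1 (-0.073 to 0.32), MAD2L1 (-0.21 to 0.42), CDC20 (-0.11 to 0.33), UBE2C (-0.10 to 0.31), CENPA (-0.11 to 0.25), KIF20B (-1.02 to 0.14), TPX2 (-0.089 to 0.028), PRC1 (-0.21 to 0.00088), TACC3 (-0.11 to 0.26), CKAP2 (-0.59 to 0.018) and FOXM1 (-0.11 to 0.081). The cause of these changes was not tested. Precision was lowest for CENPE, with the largest standard error of the 44 (0.41) and values from 4.54 to 23.9 CPM. KIF20B, at 11.1 to 43.2 CPM, had a standard error of 0.34, and CDC25C, at 11.0 to 14.8 CPM, had one of 0.17. Whether precision went with level was not tested.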
